A study of Drosophila melanogaster with 4 samples.

Results

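Tightly spaced runs are stretches of the fly genome where enriched regions of the H2Av ChIP follow one another with only short breaks. Their inner regions, called run members here, numbered 399 of the 5403 regions on chromosome arms 2L, 2R, 3L, 3R and X (7.38%), and of 6065 enriched regions in the whole replicate-set list. A run member was narrower than 10000 bp and lay 1000 bp or less from its neighbour on both sides. The members were chosen by these positions and widths in the replicate-set list alone. That list was given for the same 2 ChIP replicates, so counts, widths, gaps and scores of members are descriptions and none was tested.

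The study profiled S2-DRSC cells, a cultured line derived from male Drosophila melanogaster embryos of a late stage. All 4 samples carried the same treatment, 2 rounds of double-stranded RNA against CG5499, the gene listed by RefSeq as His2Av. The first round used 50 µg, followed by growth for about 4 days, and the second used 200 µg. Chromatin was fixed with formaldehyde and precipitated with rabbit polyclonal antibody 9751, raised against an H2Av peptide, as 2 ChIP replicates, and 2 input DNA samples accompanied them. Untreated cells and the amount of H2Av left after treatment were not analysed here, and the inputs gave no values of their own. Nothing in the labels says that the replicates were separate cultures, and any spread between them may then be technical.

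H2Av is the only H2A variant of Drosophila and acts in the place of both H2A.Z and H2A.X. It replaces H2A in a part of the nucleosomes, is found near the starts of active genes and in heterochromatin, and is phosphorylated near its C-terminus at DNA breaks. In ChIP-seq of a histone, a broad stretch of enriched nucleosomes can be listed as 1 wide region or as a chain of narrower ones, depending on where the signal falls below the caller's limit.

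On the 5 arms, the run with the most regions lay on 3R, FlyBase release 5, from 17093456 to 17115226. It linked 8 regions over 21771 bp, and 6 of them were run members. The first region, 3617 bp wide, had a score of 1.22 in the replicate set, 1.07 in replicate 1 and 1.45 in replicate 2. The second, a member of 5065 bp, had the highest score of the run, 1.41, with 1.55 and 1.49 in the replicates. Past these 2, the enrichment was weak. The third region (1717 bp, score 0.333) had no counterpart in either replicate. The fourth (2591 bp, score 0.472) was matched in both, at 0.722 in replicate 1 and 0.642 in replicate 2. The sixth (1943 bp, score 0.381) was matched in replicate 2 only, at 0.546. The fifth, seventh and eighth regions were 1571, 1607 and 1029 bp wide with scores of 0.455, 0.379 and 0.403, and neither replicate listed them. The score is the authors' own value for each region; its formula is not given in the sources used here, so regions were ranked and compared within a list, and scores of the 3 lists are given side by side without comparing their levels.

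**Figure D1:**
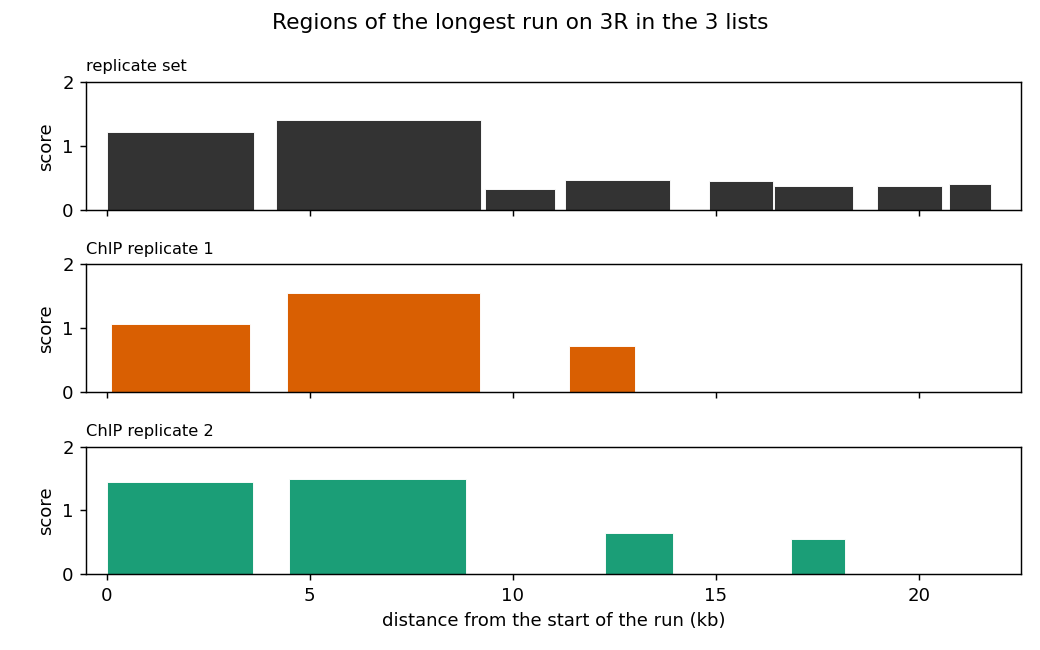
Regions of the longest run, on 3R, in the replicate set and in each ChIP replicate: the horizontal axis is the distance from the start of the run in kb, the width of a bar is the width of the region and its height is the authors' score. Replicate 1 listed 3 regions there and replicate 2 listed 4, against 8 in the replicate set.

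The gaps within runs were 1000 bp or less by the rule. The 5403 regions were separated by 1465 gaps of 1000 bp or less, and 686 of these adjoined a run member. The median gap beside a member was 364 bp, the interquartile range was 151.5 to 696.5 bp, and 213 of them (31.0%) were 200 bp or shorter. Over all 1465 such gaps the median was 377 bp and 30.2% were 200 bp or shorter, so those beside members were much the same. In all 3 lists the shortest gaps were the most frequent. In the replicate set, 541 gaps were under 250 bp and 202 were of 1000 to 1249 bp. Replicate 1 had 297 and 186 such gaps, and replicate 2 had 293 and 187. In the replicate set every gap was an odd number of bp, and 1 pair of neighbours shared a single base.

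**Figure D2:**
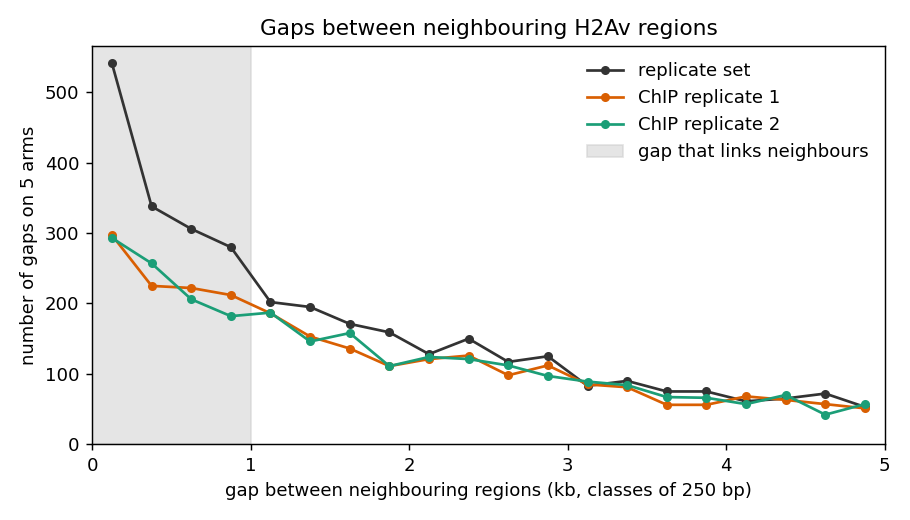
Number of gaps between neighbouring regions on the 5 arms, in classes of 250 bp up to 5 kb, for the replicate set and for each replicate; the shaded part marks gaps of 1000 bp or less. The replicate set had 541 gaps in the first class, against 297 and 293 in the replicates.

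At the limits of the rule, the widest gap beside a member was 999 bp, left of 2L 22826694 to 22827834 (1141 bp, score 0.318). Just beyond the limit, 2L 8314004 to 8315816 (1813 bp, score 0.286) had a gap of 1003 bp. Neither was listed in a replicate. The widest member was 3R 11965020 to 11974940 (9921 bp, score 1.31). It matched 1 region of replicate 1 (1.35) and 2 of replicate 2, of which the larger overlap scored 0.730. The narrowest region that the width limit kept out, 3R 1440898 to 1451520, was 10623 bp wide and scored 1.42, with 1.41 in replicate 1 and 1.49 in replicate 2.

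Most runs were short. With only regions scored at or above the arm median kept, 55 regions met the rule, and with only those found in both replicates, 105 did. A member needs a neighbour on both sides, so leaving regions out lowers the count by itself. These counts therefore do not show how far runs rest on weak regions. The 399 members lay in 284 runs, of which 201 held 1 member, 59 held 2 and 24 held 3 or more. Runs with members spanned 3909 to 94081 bp with a median of 15709 bp, and together they took up 5.45 Mb, 4.58% of the 5 arms. The median run was 94.3% enriched region and the rest gap, and the least filled was 71.1%. A region of 10000 bp or more was part of 85 of the 284 runs. Of the members, 91 (22.8%) lay directly beside such a broad region, against 515 of 2606 regions under 10000 bp with wider gaps on both sides (19.8%).

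**Figure D3:**
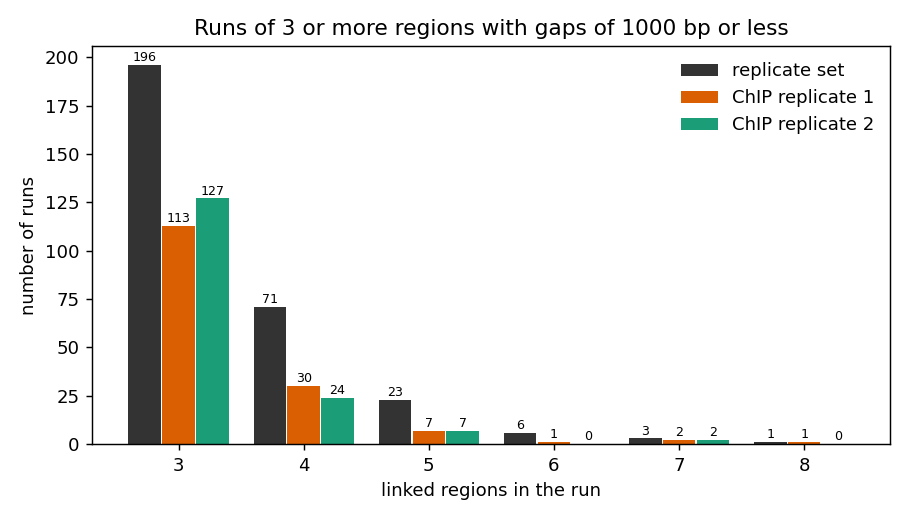
Number of runs by how many regions they link, from 3 to 8, in the replicate set and in each replicate's own list (counts above the bars). The replicate set had 196 runs of 3 linked regions, against 113 in replicate 1 and 127 in replicate 2.

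The other long runs described here were the remaining 4 of the 5 longest and the longest per arm, with ties broken by span. On 2R, 7 regions were linked from 1337536 to 1431616, the widest span of any run with members. There 4 broad blocks of 25585, 21281, 13715 and 17259 bp scored 0.848, 1.01, 0.645 and 0.751, and 3 members lay between them. The member of 4983 bp had a score of 0.862, with 0.913 in replicate 1 and 0.897 in replicate 2. The member of 2087 bp (score 0.404) was matched in replicate 1 only, at 0.562. The member of 7325 bp (score 0.551) overlapped 2 regions of replicate 1 and 3 of replicate 2.

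On 3R from 12433958 to 12482124, 7 regions were linked, and the stretch after the last one held no region for 329313 bp. Its members of 8817 and 7375 bp scored 1.19 and 1.05. In replicate 1 they scored 1.26 and 1.42, and in replicate 2 they scored 1.34 and 1.38. Between them and a broad block of 15007 bp lay members of 1925 and 2395 bp, scored 0.439 and 0.473. The narrower of these was matched in replicate 1 only and the other in neither.

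On 3L from 23041360 to 23065692, all 7 linked regions were weak, with scores of 0.422 to 0.709. A pair of neighbouring members of this run, 1263 and 1861 bp wide and 13 bp apart, overlapped the same replicate 1 region, which scored 0.981, and none in replicate 2. Another of the longest runs, on 3R from 4064518 to 4116354, began with broad blocks of 12717 and 23841 bp (scores 1.06 and 1.31). Its members of 2637, 6019 and 2735 bp followed, scored 0.550, 0.490 and 0.510. On X, 2 runs linked 6 regions, and the longer in span ran from 17975428 to 18025190, with 2 members (4737 bp, score 0.553, and 1991 bp, score 0.590) after broad blocks of 13151 and 18135 bp. On 2L, 5 runs linked 5 regions, and the longest in span ran from 9936648 to 9974670. It held a member of 2401 bp (score 0.515; 0.666 and 0.628 in the replicates) between regions scored 2.04 and 1.48, and a member of 9331 bp scored 1.49.

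Run members were found in both replicates in 224 cases (56.1%), against 67.8% over all regions on the arms. A further 34 members overlapped replicate 1 only, 33 overlapped replicate 2 only, and 108 (27.1%) overlapped neither, against 20.3% over all regions on the arms. Replicate 1 thus held 258 of the 399 members (64.7%) and replicate 2 held 257 (64.4%). All regions on the arms include those of 10000 bp or more, which the rule keeps out of members. Below 10000 bp, regions with a tight gap, 1000 bp or less, on 1 side had 60.6% in both and 25.4% in neither. Those with wider gaps on both sides had 66.6% in both and 20.8% in neither. The list for the replicate set was made for the same replicates, so these shares describe how it relates to them. The narrowest region was 1301 bp in the replicate lists and 1001 bp in the replicate set. Of the 108 members found in neither, 53 were below 1301 bp. Without regions below that width, a comparison added after the values were seen, 65.5% of members and 75.7% of all arm regions were found in both replicates.

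Members found in both replicates were the wide and strong ones. Their median score was 1.06 and their median width 4983 bp, against 0.428 and 1312 bp for members found in neither. Members seen in replicate 1 only had a median score of 0.437 and those seen in replicate 2 only 0.433. Among members of 4001 to 9999 bp, 152 of 156 (97.4%) were found in both replicates. Among those of 2001 to 4000 bp the count was 69 of 103 (67.0%), and among those of 1301 to 2000 bp it was 3 of 83 (3.61%). Regions of 2001 to 4000 bp with wider gaps on both sides were found in both replicates in 82.8% of 874 cases, and those with a tight gap on 1 side in 74.7% of 529. In this width class the share was lowest for run members. In the class of 4001 to 9999 bp the 3 kinds of region lay between 97.2% and 99.3%.

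**Figure D4:**
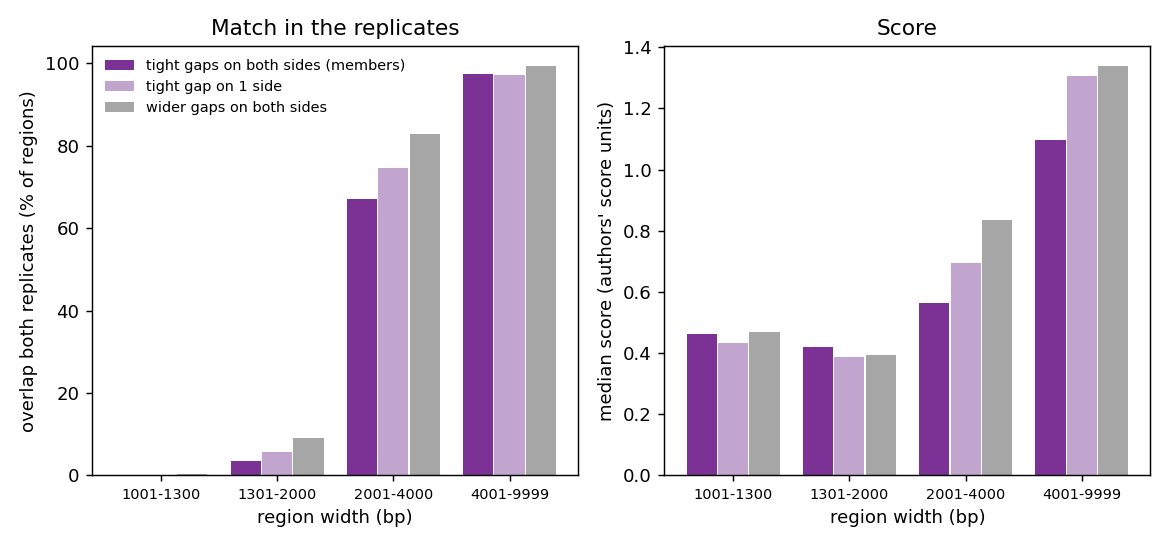
Regions below 10000 bp by width class, for run members, regions with a gap of 1000 bp or less on 1 side, and regions with wider gaps on both sides. Bars give the percent that overlap both replicates (left) and the median score in the replicate set (right). From 2001 to 4000 bp, members had a share of 67.0% and a median score of 0.562, against 82.8% and 0.834 for regions with wider gaps.

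Run members above 2000 bp scored lower than other regions of similar width. Their scores ran from 0.237 to 3.005 with a median of 0.620, and an interquartile range of 0.435 to 1.18. Regions below 10000 bp with a tight gap on 1 side had a median score of 0.681, and those with wider gaps on both sides 0.799, while the median widths of the 3 kinds were 3233, 3265 and 3286 bp. Within width classes, the difference lay in the wider members. Members of 2001 to 4000 bp had a median score of 0.562 and those of 4001 to 9999 bp 1.10, against 0.834 and 1.34 for regions of the same widths with wider gaps on both sides. From 1301 to 2000 bp the medians were 0.418 and 0.393. Narrow regions were also more common among members than among regions with wider gaps. Of members, 14.3% were 1001 to 1300 bp wide and 20.8% were 1301 to 2000 bp, against 10.8% and 18.3% with wider gaps. Regions with a tight gap on 1 side lay between, at 13.0% and 18.8%. Scores below 0.5 belonged to 149 members (37.3%), against 35.7% of the regions under 10000 bp with a tight gap on 1 side and 28.9% of those with wider gaps on both sides.

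Within each replicate list the median was also lower for members. By the replicate region that shared most bases with each, members had a median score of 0.983 in replicate 1 and 0.988 in replicate 2. Regions below 10000 bp with wider gaps on both sides had 1.20 and 1.25. These medians leave out the members that a replicate did not list. For 170 members that matched 1 region in each replicate and no other, the median was 1.24 in replicate 1 and 1.26 in replicate 2. Matched in the same way, 1553 regions with wider gaps had 1.27 and 1.32, and 907 with a tight gap on 1 side had 1.28 and 1.33. The members' medians lay closer to the others here. This matching kept the stronger regions of each kind, with replicate-set medians of 1.17, 1.21 and 1.23 in the same order. It can narrow a difference by itself, and widths were not matched. Across the 170 members the 2 replicates' scores had a Spearman rank correlation of 0.956, against 0.953 for the regions with wider gaps. Members share libraries and neighbourhoods and are not replicates, so this describes the lists.

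The 5 highest-scored members were of 2 kinds. The highest, 2L 22790464 to 22791466, was 1003 bp wide, scored 3.005 and was listed in neither replicate. The other 4 were 3929 to 5297 bp wide and were found in both. They were 3R 4172044 to 4177086 (2.16; 2.10 in replicate 1 and 2.36 in replicate 2), X 13502750 to 13508046 (2.13; 2.09 and 2.23), 3R 25047208 to 25051136 (2.11; 2.13 and 2.24) and 2R 20554170 to 20558958 (2.07; 2.01 and 2.26).

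The 5 lowest-scored members were 1067 to 1833 bp wide, and none was found in both replicates. In proximal 2L lay 3 of them, at 22324464 to 22325846 (score 0.237), 22571234 to 22572300 (0.296) and 21587556 to 21589388 (0.297). The last was matched in replicate 1 at 0.361. The others were 3L 1849254 to 1850760 (0.262, matched in replicate 1 at 0.441) and 3L 15117856 to 15119326 (0.266, in neither). Both ends of the score range were thus found in the same part of 2L.

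A member's score went with that of its neighbours. Across the 399 members the score had a Spearman correlation of 0.497 with the mean score of the 2 neighbours, and across 2606 regions below 10000 bp with wider gaps on both sides it was 0.245. The correlation of widths was 0.157 and 0.107. Neighbouring regions share libraries and local sequence, and members of 1 run enter more than once. In score, 136 members (34.1%) lay below both neighbours, 95 (23.8%) above both and 168 (42.1%) between. For the regions with wider gaps the shares were 33.8%, 28.9% and 37.3%. A member scored below 0.5 between neighbours of 1 or more was found 8 times (2.01%), against 112 times (4.30%) among the regions with wider gaps.

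Some neighbouring members nevertheless differed sharply. Over 112 pairs of adjacent members the median score difference was 0.161, and the largest was 1.64. That pair lay in proximal 2L, where 22788226 to 22789530 scored 1.36 beside the highest-scored member at 3.005, 933 bp away, and neither was listed in a replicate. The next pair lay on 2R, where 4984518 to 4992200 (1.73; 1.72 and 1.76 in the replicates) stood 635 bp from 4992836 to 4995358 (0.350), which neither replicate listed. The third lay on 3R, where the member at 4172044 (2.16) stood 749 bp from 4177836 to 4185456 (0.888; 0.985 and 1.01). In the pairs on 2R and 3R, the stronger member was strong in both replicates.

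Most breaks beside members were also breaks in the replicates where these listed both sides. Of the 686 gaps beside members, a single replicate 1 region bridged 12 (1.75%) and a single replicate 2 region bridged 9 (1.31%), a mean of 1.53% ± 0.309 (SD, n = 2), and 1 gap was bridged in both. Over all 1465 gaps of 1000 bp or less the shares were 1.91% and 1.30%, so bridging beside members was like that of tight gaps in general. Both flanking regions were matched in replicate 1 at 343 gaps, and separate replicate regions lay on the 2 sides at 331 of these, leaving 3.50% bridged. In replicate 2 the counts were 331 and 322, with 2.72% bridged. No other replicate region lay within these gaps. The midpoint of the break was displaced by a median of 67.0 bp in replicate 1 and 94.3 bp in replicate 2. At 251 gaps replicate 1 listed 1 flank, and at 92 neither; replicate 2 had 266 and 89 such gaps.

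The same breaks were wider in the replicates. Their median width was 828 bp over 331 breaks in replicate 1 and 937.5 bp over 322 in replicate 2. The replicate-set median of 364 bp covers all 686 gaps beside members, so it is not a median of the same breaks. Where both replicates had the break, 253 of 274 gaps were wider in each replicate than in the replicate set (92.3%, against 92.6% over all tight gaps). Replicate regions were narrower at both edges. Over the 216 members with a one-to-one match in replicate 1, the replicate region started a median of 118 bp later, ended 117.5 bp earlier and had 0.923 times the width. For the 220 in replicate 2 the values were 172.5 bp, 167.5 bp and 0.881 times. Regions below 10000 bp with wider gaps on both sides had width ratios of 0.937 and 0.925. A width of 1000 bp or less was kept by 211 of the 331 breaks in replicate 1 and 177 of the 322 in replicate 2 (63.7% and 55.0%, against 64.3% and 56.6% over all tight gaps). In both replicates at once this held for 137 of 274, and over all tight gaps for 324 of 646.

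The same rule applied to each replicate's own list gave fewer members, and mostly other ones. Replicate 1 had 190 members among 4562 regions and replicate 2 had 182 among 4575, a mean of 186 ± 5.66 (SD, n = 2). Their median width was 3916 and 3642 bp and their median score 1.12 and 1.17, below the medians of 1.22 and 1.26 over all arm regions of the same lists. Those regions had no width limit. Of the members in replicate 1, 70 (36.8%) overlapped a member in replicate 2, and 74 of those in replicate 2 (40.7%) overlapped one in replicate 1. Of the 399 replicate-set members, 71 (17.8%) overlapped a member of the replicate 1 list, 50 (12.5%) one of the replicate 2 list, 35 one of both and 313 one of neither.

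Runs in the replicate lists lay more often than other replicate regions where 1 replicate-set region overlapped several replicate regions. In replicate 1, 139 of its 190 members (73.2%) overlapped a replicate-set region that held 2 or more regions of that replicate. In replicate 2 this was so for 146 of 182 (80.2%). Over all arm regions of the lists the shares were 23.1% and 25.0%. The rule favours such places, since members have close neighbours. Replicate-set regions of 10000 bp or more took in 86 of the first (45.3%) and 98 of the second (53.8%), against 20.8% and 21.9% of all arm regions. The longest run of replicate 1 linked 8 regions on 3L from 20411277 to 20462994, where the replicate set listed 4 regions and replicate 2 listed 5. In replicate 2, 7 regions were linked on 2L from 22049393 to 22089952. In the replicate set that stretch fell in 2 regions, one of them 60381 bp wide, and held no member.

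The 35 members that overlapped a member of both replicate lists had to be matched in both replicates. Their median width was 4633 bp and their median score 1.43, against 4983 bp and 1.06 for the 224 members found in both, and their replicate medians were 1.46 and 1.52. The highest-scored of them were X 13502750 to 13508046 and 3R 25047208 to 25051136, given above. They were followed by 2R 2552734 to 2559056 (1.87; 1.95 and 1.91 in the replicates), 2L 6559686 to 6564350 (1.82; 1.89 and 1.84) and 3R 6612116 to 6616622 (1.80; 1.96 and 1.83). These 5 were named after their values were seen.

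Members lay on every arm in similar proportion. They made up 7.08% of the regions on X (72 of 1017), 7.49% on 2L (70 of 935), 7.69% on 2R (87 of 1131), 6.34% on 3L (69 of 1089) and 8.20% on 3R (101 of 1231). Per Mb, the density was 3.21 on X, 3.04 on 2L, 4.11 on 2R, 2.81 on 3L and 3.62 on 3R. The arm 2R also had the most regions of any kind, 53.5 per Mb against 40.6 to 45.4 on the others. The median score of members was 0.749 on X, 0.593 on 2L, 0.558 on 2R, 0.632 on 3L and 0.510 on 3R. On each arm it lay below that of all regions there, which was 0.986, 0.795, 0.857, 0.841 and 0.886 in the same order. The share found in both replicates was 50.5% on 3R and 55.1% to 59.8% on the other 4 arms, against 68.9% and 66.0% to 69.7% of all regions there. For both measures, all regions included those of 10000 bp or more, which the rule keeps out of members. In the replicates' own lists, X had 28 and 25 members, 2L 39 and 36, 2R 53 and 44, 3L 42 and 41, and 3R 28 and 36.

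Taken over the 5 arms together, members were densest at the 2 ends. Each arm was divided into 10 equal segments from the centromere, which lies at high coordinates on X, 2L and 3L and at low coordinates on 2R and 3R. Over the 5 arms, segment 1, nearest the centromere, held 66 members or 5.54 per Mb, the next 53 or 4.45 per Mb, and the outermost 54 or 4.54 per Mb. The segments between had 2.18 to 3.19 per Mb. Regions of all kinds were also denser near the centromere, at 57.7 per Mb in segment 1. As a share of the regions present, members made up 9.61% in segment 1, 9.26% in the outermost and 5.59% to 8.04% elsewhere. The outermost segment was uneven, with 14 members on X and 15 on 3R but 4 on 3L. On X the segment nearest the centromere held 3 members, while segments 2 and 4 held 14 each. On 2R, segment 3 held 13 members and the outermost 12.

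**Figure D5:**
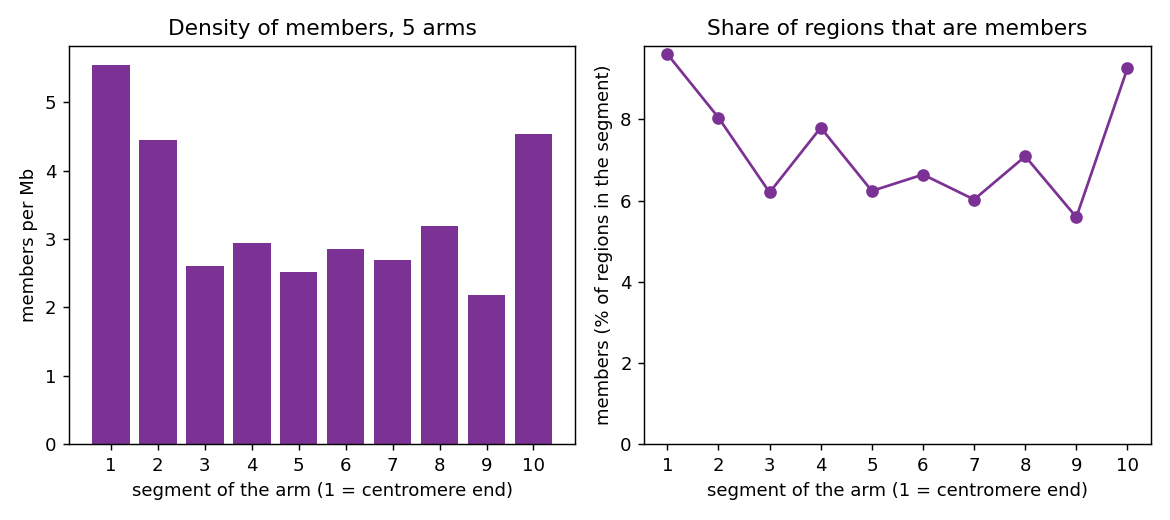
Run members on the 5 arms by segment of the arm, from the centromere end (1) to the outer end (10). The left panel gives members per Mb and the right panel members as a percent of the regions in that segment, which was 9.61% in segment 1, 9.26% in the outermost and 5.59% to 8.04% in the others.

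In the 20% of each arm nearest the centromere lay 119 members (29.8%), against 24.9% over all regions on the arms. The excess was largest on 2L and 3L and smaller on X and 3R. On 2L, 41.4% of members and 29.0% of all regions lay in that part, and on 3L 42.0% and 28.2%. The shares were 23.6% and 20.1% on X, 24.8% and 23.6% on 3R, and 21.8% and 24.1% on 2R, where members lay there less often. Without 2L and 3L, a comparison added after these values were seen, 23.5% of members and 22.7% of all regions lay in that part. With regions 200 bp or less apart joined first, the shares were 23.9% and 24.1%, so the excess was not seen. Among regions found in both replicates they were 30.5% and 23.4%. In the replicates' own lists, 28.9% of the members of replicate 1 and 31.9% of those of replicate 2 lay there, against 24.8% and 24.9% of all their regions.

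Members were spread over many windows and gathered in a few. Of 1194 windows of 100 kb on the arms, 248 held a member, and 36 windows held 3 or more, with 136 members between them. The window on 3L from 23000001 to 23100000 held 8 members among 19 regions. Windows on 3R from 17100001 and from 25700001 held 7 each, among 13 and 16 regions, and that on 2L from 19000001 held 6 among 18. These windows were picked by their counts.

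Cover around runs with members lay between that around runs without members and that around single regions. Within 50 kb on each side of the runs with members, the runs themselves left out, regions of the replicates covered a median of 25.1% ± 0.553 of the sequence (SD, n = 2). Around runs without members the median was 26.8% ± 0.443, and around single regions with wider gaps on both sides 23.2% ± 0.273 (SD, n = 2 each). Of the 729 runs without members, 713 linked only 2 regions. Around runs with members the interquartile range was 14.1% to 37.7% in replicate 1, and in replicate 2 it was 14.0% to 37.3%. Around single regions it was 13.4% to 35.7% and 13.0% to 34.4%, so the kinds overlapped broadly.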

How the data were processed

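The 3 lists of enriched regions deposited by the authors comprised 1 per ChIP replicate and 1 for the replicate set, all with positions on FlyBase release 5 per the file headers. The submitters' processing notes list Bowtie 0.12.7. How regions were called, and at which threshold, is not given in the sources used here. The authors deposited 1 score per region. The lists hold no counts, so depth is unknown and no counting interval can be given.

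Regions were sorted by start, and a gap was the next start minus the previous end minus 1. The 1 region marked as depleted was left out by the rule for members. A run is an unbroken chain of gaps of 1000 bp or less. Regions were matched from 1 shared bp, and means with SD are over the 2 replicates. The replicate-set list is 1 result for both replicates and has no SD. Run finding and overlaps were tested on simulated data. The members, tests and lists were chosen with earlier results of these data known. Named regions were the longest run overall and per arm, the 5 longest runs, the 5 highest and 5 lowest member scores, members at the limits and the 3 largest score differences between adjacent members. No genome or annotation of release 5 was used here, so neither genes nor sequences are given; RefSeq (release 6) served only to name the RNAi target. Samples were grouped by title, since the description of ChIP replicate 2 names input DNA. Calculations used numpy 2.4.6, scipy 1.17.1 and pandas 2.3.3 under Python 3.11.15, with plots from matplotlib 3.10.9.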

Additional observations from a re-analysis of the deposited data

How the results depend on the processing

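The number of members followed the limits set: 149 with gaps of 500 bp or less, 841 with gaps of 2000 bp or less, 197 after merging regions within 200 bp, 105 among regions found in both replicates, and 55 among regions scored at or above the arm median. In the replicates' own lists the mean count was 68 at 500 bp and 495.5 at 2000 bp. The longest run linked 5 regions among both-replicate regions and 5 among upper-scored ones. The share of members found in both replicates was 49.0% at 500 bp, 58.4% at 2000 bp and 61.3% without the width limit, against 67.8% of all arm regions. It was 55.6% with an overlap of 50% of the shorter region (all regions 67.7%), 90.9% among upper-scored regions (98.6%) and 65.5% without regions narrower than any in the replicates (75.7%). With 1 replicate left out, only overlap with the other was asked for, which is a different measure from the share found in both. That share was 64.4% to 64.7% (73.2% to 74.2%). In each of these settings members lay below all regions, which were not held to the width limit. The median score was 0.581 at 500 bp, 0.648 at 2000 bp, 0.697 without the width limit, 0.669 after merging, 1.26 among both-replicate regions and 1.501 among upper-scored ones. The share in the 20% of each arm nearest the centromere was 36.2% at 500 bp (all regions 24.9%), 23.6% among upper-scored regions (22.1%), 23.9% after merging (24.1%) and 23.5% without 2L and 3L (22.7%); in the nearest 10% of each arm it was 16.5%, against 12.7% of all regions. The share of bridged gaps was 2.99% at 500 bp, 1.14% at 2000 bp and 0.146% with the 50% overlap. These are 31 of 46 alternative values, and the other 15 stayed within set limits. For counts and run length the limit was a factor of 1.5. For the share in both replicates, the score and the bridged gaps it was the SD of the 2 single-replicate values. For the share near the centromere it was a 95% Wilson interval, which takes members as independent, though they share libraries and neighbourhoods. Neither the SD nor the interval measures the spread of a replicate-set value, so the split is only a sorting by size of change. The cause of the changes was not tested beyond what the limits themselves fix. No paired analysis was possible because only the ChIP group has region lists. Depth is unknown, and a weak member that a replicate does not list may have been missed there.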

Other observations

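Outside the 5 arms, 66 regions met the same width and gap limits. Chromosome 4, the small repeat-rich autosome, had 24 among its 115 regions (20.9%), with a median score of 0.448 and a run of 10 linked regions. The scaffold 3LHet had 17 among 163 (10.4%), 2RHet 13 among 119 (10.9%), unplaced sequence 5 among 176 (2.84%), 3RHet 4 among 52, 2LHet 2 among 17 and XHet 1 among 13, and YHet had none among its 7 regions. A score found again in another region of the arms belonged to 44 members (11.03%), against 9.20% of all arm regions.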
